A study of Mus musculus with 21 samples.

Results

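The genes described are 7 matrix metalloproteinases (Mmp8, Mmp9, Mmp12, Mmp13, Mmp14, Mmp19 and Mmp25) and 3 of their tissue inhibitors (Timp1, Timp2 and Timp3). They were taken by their mouse symbols, and all 10 were found among the 47069 gene identifiers of the count table and were among the 15581 genes tested. The RNA came from cultured macrophages that had been grown out of bone marrow cells with the growth factor M-CSF. The marrow donors were C57BL/6 wild-type mice aged 8 to 10 weeks. The cells of IL_TNF_6h and IL_TNF_24h received interleukin 4 (IL-4), interleukin 13 (IL-13) and tumour necrosis factor (TNF), those of IL_6h and IL_24h the 2 interleukins, those of TNF_6h and TNF_24h only TNF, and those of Ctrl_0h no cytokine. Each cytokine was given at 10 ng/ml for the 6 or 24 h in the name, and each of the 7 groups holds 3 libraries, 21 in all. The untreated cells were taken at 0 h, so a comparison with them also carries the time in culture. Since no label ties a replicate to its own culture or animal, the p values cover the spread among these libraries, which may be technical. In bulk RNA, fewer cells that express a gene and less of its RNA per cell cannot be told apart.

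Matrix metalloproteinases are zinc-dependent endopeptidases that cut collagens, elastin, laminins and many cell surface and signalling proteins. Most are secreted as inactive proenzymes that need a cut by another protease, while Mmp14 is anchored by a transmembrane segment and Mmp25 by a lipid anchor, and both can be activated by furin-like convertases on the way to the surface. The tissue inhibitors bind the active site of the enzymes, and Timp2 also takes part, with Mmp14, in the activation of the proenzyme of Mmp2. In macrophages Mmp12, the macrophage elastase, is the best known member, and Mmp8, Mmp9 and Mmp25 are also known from neutrophils.

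Each library held at least 28.1 and at most 48.7 M counts (M, 1e6). By Xist, Ddx3y, Ifi202b and the last 86 identifiers of the table they fell into 3 sets, which are the 9 libraries of Ctrl_0h, TNF_6h and TNF_24h, the 6 of IL_6h and IL_TNF_6h, and the 6 of IL_24h and IL_TNF_24h. TNF against Ctrl_0h, TNF at 24 h against 6 h, and IL_TNF against IL at 1 time compare libraries within a set. In IL against Ctrl_0h and IL_TNF against TNF the set and the interleukins cannot be told apart. Differences of TNF effects, with minus without the interleukins or 24 h minus 6 h, set effects from different sets against each other. There the set cannot be told apart from the interleukins or the time. Replicate 2 of Ctrl_0h stood apart, with counts in 27761 genes against 16996 to 20631 in the 20 others, as did replicate 1 of IL_TNF_24h in several members below. All 9 macrophage markers were expressed in every group, with a summed level of 12200 to 44000 CPM (counts over the TMM-scaled library size, in units of 1e6). In the order of the sets above, Xist was 162 to 283, 562 to 1010 and 0 to 0.145 CPM. Ddx3y was 0, 0 and 41.8 to 50.9 CPM, and Ifi202b 0, 30.3 to 64.2 and 0 CPM. The last 86 identifiers held 0 counts in the libraries of the first set, 10263 to 15883 in the second and 13048 to 19757 in the third. Changes are log2 fold changes ± standard error from edgeR's quasi-likelihood test, and a gene was called at a Benjamini-Hochberg adjusted p below 0.05 over all genes tested.

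The 250 bases before the annotated start were matched for 8 of the 10 members in the promoter table of RefSeq (GRCm38.p6), in 9 windows since Mmp12 has 2 starts. These windows were searched on both strands for an AP-1 motif (TGANTCA), a STAT6 motif (TTCNNNNGAA), an NF-kB motif and a TATA motif (TATAAA), because AP-1 and NF-kB act downstream of TNF and STAT6 downstream of IL-4 and IL-13. Windows of the same length held the AP-1 motif in 6.75% of 32851 promoters, the STAT6 motif in 5.85%, the NF-kB motif in 7.25% and the TATA motif in 12.4%. The windows printed are those of Mmp13, Mmp12 and Mmp25, which hold a match, and of Mmp14, the member with the largest rise after TNF alone, which holds none of the 4. The window of Mmp13 (chr9:7272264-7272513, plus strand) has TGACTCA from 35 to 29 bases before the start and TATAAA from 16 to 11 bases before it. The first window of Mmp12 (chr9:7344147-7344396, plus strand) has an NF-kB match on the minus strand, 129 to 120 bases before the start, and the second (chr9:7347124-7347373, plus strand) has TGAGTCA, 44 to 38 bases before it. The window of Mmp25 (chr17:23645270-23645519, minus strand) has NF-kB matches 88 to 79 and 51 to 42 bases before the start, and that of Mmp14 is chr14:54431348-54431597 on the plus strand. The windows of Mmp8, Timp1, Timp2 and Timp3 hold no match either. Matched motifs stand in capitals, no match overlaps one of another motif, and a match is a run of letters, not a measured binding site.

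Mmp13 promoter: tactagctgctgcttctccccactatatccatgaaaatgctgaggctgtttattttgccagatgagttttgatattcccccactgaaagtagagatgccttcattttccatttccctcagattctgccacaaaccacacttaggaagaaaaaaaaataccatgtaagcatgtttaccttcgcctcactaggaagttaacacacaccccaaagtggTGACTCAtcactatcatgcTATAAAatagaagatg

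Mmp12 promoter, first start: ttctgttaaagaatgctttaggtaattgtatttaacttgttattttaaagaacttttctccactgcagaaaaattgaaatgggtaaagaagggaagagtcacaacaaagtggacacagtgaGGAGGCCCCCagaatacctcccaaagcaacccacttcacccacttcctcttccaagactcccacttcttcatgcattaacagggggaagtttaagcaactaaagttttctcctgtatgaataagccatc

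Mmp12 promoter, second start: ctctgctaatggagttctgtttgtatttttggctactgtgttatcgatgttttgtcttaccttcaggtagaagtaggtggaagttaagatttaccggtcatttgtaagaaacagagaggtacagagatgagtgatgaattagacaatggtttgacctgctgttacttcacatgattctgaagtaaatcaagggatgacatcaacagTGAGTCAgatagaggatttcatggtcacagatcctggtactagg

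Mmp25 promoter: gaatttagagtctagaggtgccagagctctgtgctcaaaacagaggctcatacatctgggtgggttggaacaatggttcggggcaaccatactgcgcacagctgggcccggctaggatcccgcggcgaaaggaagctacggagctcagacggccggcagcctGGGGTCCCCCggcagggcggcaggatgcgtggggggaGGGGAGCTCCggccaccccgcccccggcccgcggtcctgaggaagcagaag

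Mmp14 promoter: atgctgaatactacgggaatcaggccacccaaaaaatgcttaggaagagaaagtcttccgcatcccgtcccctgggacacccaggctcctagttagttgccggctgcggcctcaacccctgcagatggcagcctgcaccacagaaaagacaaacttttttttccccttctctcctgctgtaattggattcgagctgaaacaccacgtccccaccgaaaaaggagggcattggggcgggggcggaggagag

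TNF alone raised the transmembrane proteinase Mmp14 and the gelatinase Mmp9 at both times, and later raised the collagenase Mmp13 and lowered the inhibitor Timp2. In TNF_6h against Ctrl_0h 4 of the 10 members rose and 0 fell, and of all genes tested 39.3% were called, 18.8% higher and 20.5% lower. Those that rose were Mmp14 (7.21 ± 0.53 on the log2 scale), Mmp9 (4.43 ± 0.40), Mmp19 (1.01 ± 0.27) and Mmp8 (0.67 ± 0.21). Values of Mmp12 (0.465 ± 0.25), Mmp13 (-0.115 ± 0.21), Mmp25 (-1.355 ± 0.91) and Timp1 (-0.91 ± 0.44) were not called. In TNF_24h against Ctrl_0h 3 rose and 1 fell, with 45.3% of all genes called, 20.9% higher and 24.4% lower. Mmp14 rose by 6.59 ± 0.51, Mmp9 by 4.48 ± 0.40 and Mmp13 by 1.46 ± 0.20, and Timp2 changed by -0.81 ± 0.12. Not called at 24 h were Mmp8 (0.019 ± 0.22), Mmp12 (0.047 ± 0.25), Mmp19 (0.11 ± 0.28), Mmp25 (0.62 ± 0.82) and Timp1 (0.60 ± 0.42). The shares of members called were close to those of all genes. The median size of change over the members was 0.957 in TNF_6h and 0.714 in TNF_24h on the log2 scale, against 0.49 and 0.564 over all genes tested. These medians include members that were not called and had low counts. Since the members were chosen with earlier results of these data known, the higher medians are a description and no result about them.

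With the interleukins present, TNF raised the same 2 proteinases, and Mmp25 rose with them. In IL_TNF_6h against IL_6h 4 members rose and 1 fell, with 14.1% of all genes called, 7.09% higher and 6.98% lower. Mmp9 rose by 3.95 ± 0.40, Mmp25 by 3.765 ± 0.85, Mmp14 by 3.26 ± 0.43 and Mmp13 by 1.12 ± 0.19, and Timp2 changed by -0.565 ± 0.12. In IL_TNF_24h against IL_24h 4 rose and 2 fell, with 11.1% of all genes called, 6.03% higher and 5.08% lower. The rises were those of Mmp14 (5.74 ± 0.50), Mmp9 (5.16 ± 0.40), Mmp25 (5.14 ± 1.02) and Mmp8 (1.23 ± 0.20), and Mmp13 (-0.875 ± 0.19) and Timp2 (-0.88 ± 0.12) fell. Mmp8 at 6 h (-0.29 ± 0.20) and Timp1 at 24 h (-0.62 ± 0.41) were not called. At 24 h Mmp12 was not called (0.52 ± 0.25, adjusted p = 0.2407), but was called without replicate 1 of IL_TNF_24h (0.86, adjusted p = 0.0026).

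**Figure D1:**
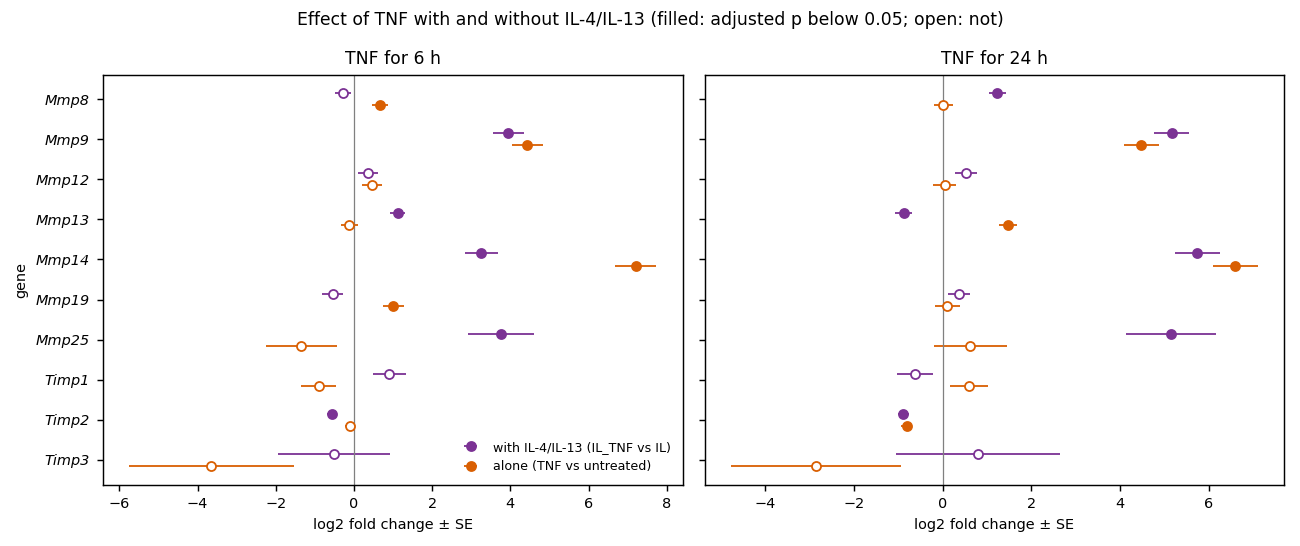
Log2 fold change (x axis) of each member (y axis) after TNF with IL-4 and IL-13 and after TNF alone, in 6 h and 24 h panels, with bars of 1 standard error and filled points for genes called. Mmp14 and Mmp9 stand far to the right with and without the interleukins, and Timp2 lies left of 0 in all 4 comparisons and was called in all but TNF_6h against Ctrl_0h.

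With the interleukins alone Mmp8, Mmp12, Mmp13 and Mmp19 rose at both times, in a comparison that also crosses library sets. In IL_6h against Ctrl_0h 5 members rose and 0 fell, with 64.5% of all genes called, 32.8% higher and 31.6% lower. The risers were Mmp14 (4.16 ± 0.46), Mmp13 (2.94 ± 0.21), Mmp19 (1.465 ± 0.27), Mmp8 (1.15 ± 0.21) and Mmp12 (1.02 ± 0.26). Mmp9 (-0.78 ± 0.41), Mmp25 (-0.36 ± 0.84), Timp1 (-0.39 ± 0.43) and Timp2 (0.13 ± 0.12) were not called. In IL_24h against Ctrl_0h 5 rose and 2 fell, with 64.3% of all genes called, 31.7% higher and 32.6% lower. Mmp12 rose by 4.40 ± 0.29, Mmp19 by 3.07 ± 0.28, Mmp13 by 2.17 ± 0.20, Mmp8 by 1.92 ± 0.21 and Timp2 by 1.03 ± 0.12, while Mmp9 (0.069 ± 0.39) and Timp1 (0.95 ± 0.42) were not called. The 2 falls, of Mmp14 (-1.09 ± 0.465) and Mmp25 (-3.47 ± 1.04), rest on replicate 2 of Ctrl_0h, and without it the values are 0.134 and 1.603 and neither gene is called. The call of Mmp14 was also lost without any 1 of the IL_24h libraries (adjusted p = 0.07809 to 0.1456) or when the 2 groups alone were fitted (adjusted p = 0.1898). Without replicate 2 of Ctrl_0h Mmp9 (0.867) and Timp1 (1.158) were also called in IL_24h. Without it Mmp25 was called higher than in Ctrl_0h in TNF_6h (3.712, adjusted p = 0.0002591), TNF_24h (5.688, adjusted p = 2.001e-07) and IL_6h (4.703, adjusted p = 2.579e-06).

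Mmp14 encodes membrane type 1 metalloproteinase, a collagenase of the cell surface that can also activate Mmp2 (ENSMUSG00000000957, GRCm38.p6 chromosome 14, 54431598 to 54442456). After TNF for 6 h its 3 libraries had 633, 511 and 547 CPM, against 2.00, 8.35 and 1.21 CPM in Ctrl_0h. After 24 h of TNF they had 393, 379 and 333 CPM. Both TNF groups lay far above every untreated library, and the difference between the times was not called (-0.615 ± 0.39, adjusted p = 0.2944), although the 2 groups did not overlap, and was called when these 2 groups alone were fitted (adjusted p = 0.002667) or without a filter on low counts (adjusted p = 0.005768). Without replicate 2 of Ctrl_0h the rises were 8.44 at 6 h and 7.82 at 24 h.

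With all cytokines for 6 h Mmp14 had 749, 727 and 479 CPM in IL_TNF_6h, against 78.9, 51.6 and 74.1 CPM in IL_6h. At 24 h it had 134, 80.2 and 72.7 CPM in IL_TNF_24h, against 1.89, 2.09 and 1.40 CPM in IL_24h. The level under the interleukins alone was thus raised at 6 h and as low as in untreated cells at 24 h, and IL_24h was the lowest of the 7 groups, overlapping Ctrl_0h. The effect of TNF at 6 h was smaller with the interleukins than without them, by -3.95 ± 0.59 on the log2 scale (adjusted p = 0.0001088) and by -5.181 without replicate 2 of Ctrl_0h, while the levels of IL_TNF_6h and TNF_6h overlapped (0.21 ± 0.39, adjusted p = 0.6726). At 24 h the same difference of effects was not called (-0.85 ± 0.61, adjusted p = 0.3312), but was -2.08 (adjusted p = 0.00092) without replicate 2 of Ctrl_0h. The level itself was lower in IL_TNF_24h than in TNF_24h (-1.945 ± 0.41, adjusted p = 0.00047), a comparison that crosses sets.

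Mmp9 encodes gelatinase B, which cuts denatured collagen and type IV collagen (ENSMUSG00000017737, chromosome 2, 164940326 to 164955850). It had 54.25, 46.95 and 48.2 CPM in TNF_6h and 47.1, 54.3 and 52.8 CPM in TNF_24h, against 1.31, 4.36 and 1.34 CPM in Ctrl_0h. The TNF groups overlapped each other and lay above all untreated libraries (4.43 and 4.48, adjusted p = 3.883e-08 and 2.205e-08). Without replicate 2 of Ctrl_0h the rises were 5.23 and 5.275. With the interleukins it had 25.1, 18.4 and 18.9 CPM in IL_TNF_6h, against 1.502, 1.33 and 1.18 CPM in IL_6h. At 24 h there were 44.0, 106.7 and 109.1 CPM in IL_TNF_24h, against 3.17, 1.73 and 2.31 CPM in IL_24h. Replicate 1 of IL_TNF_24h lay below the other 2, which were the highest libraries of the series for this gene.

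At 6 h Mmp9 was lower with all cytokines than with TNF alone (IL_TNF_6h against TNF_6h, -1.26 ± 0.33, adjusted p = 0.003296). In that comparison 6 of the 10 members were called, 4 higher and 2 lower, with 57.1% of all genes called, 29.7% higher and 27.5% lower. Beside Mmp9 and Timp2 (-0.33 ± 0.12), which were lower, Mmp25 (4.76 ± 0.92), Mmp13 (4.17 ± 0.22), Timp1 (1.42 ± 0.44) and Mmp12 (0.905 ± 0.255) were higher in IL_TNF_6h, and Mmp8 (0.19 ± 0.21) and Mmp19 (-0.089 ± 0.26) were not called. The call of Timp1 was lost without replicate 2 of TNF_6h (adjusted p = 0.05238) and that of Timp2 without replicate 1 of TNF_6h or replicate 2 of IL_TNF_6h (adjusted p = 0.1545 and 0.09907). Both calls were also lost without a filter (adjusted p = 0.06509 and 0.2058). At 24 h Mmp9 was not called (0.75 ± 0.33, adjusted p = 0.0572), and without replicate 1 of IL_TNF_24h it was higher (1.05, adjusted p = 0.0064). In this comparison of IL_TNF_24h with TNF_24h 5 members were called, 4 higher and 1 lower, with 56.3% of all genes called, 29.2% higher and 27.1% lower. Mmp12, Mmp19 (3.33 ± 0.28), Mmp8 (3.13 ± 0.22) and Timp2 (0.954 ± 0.12) were higher there and Mmp14 lower, and Mmp13 (-0.17 ± 0.19), Mmp25 (1.05 ± 0.785) and Timp1 (-0.265 ± 0.42) were not called. The effect of TNF on Mmp9 with the interleukins minus that without was -0.48 ± 0.53 at 6 h and 0.68 ± 0.51 at 24 h, neither called. With replicate 2 of Ctrl_0h and replicate 1 of IL_TNF_24h both left out the 6 h difference of Mmp9 was called (-1.357, adjusted p = 0.001904).

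**Figure D2:**
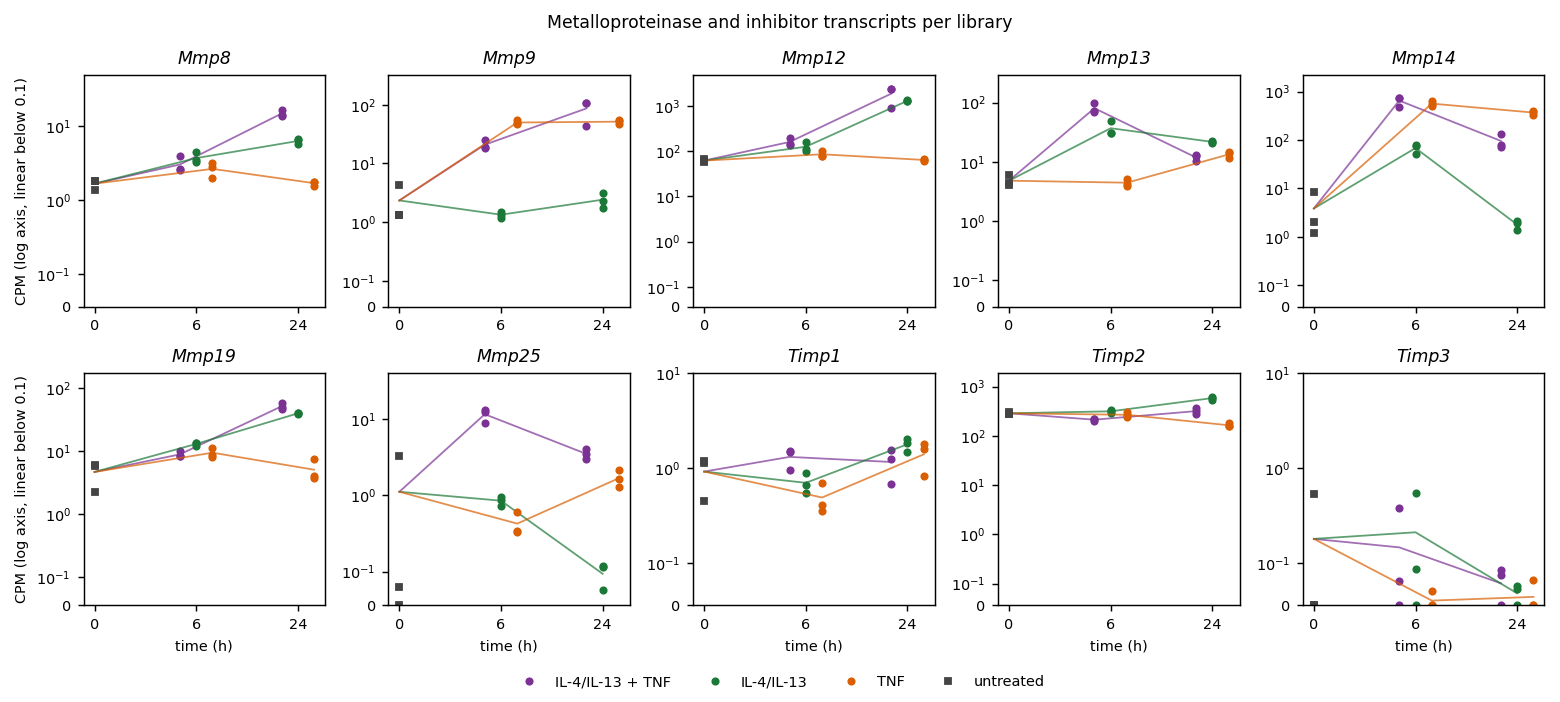
CPM (y axis, log scale but linear below 0.1) in each library (points) against time in h (x axis, not to scale), with 1 panel for each member, colours for the cytokines and lines through the group means. Mmp14 and Mmp9 are high in all 4 groups with TNF, Mmp12 and Mmp19 are highest in IL_TNF_24h and IL_24h, Mmp13 is highest in IL_TNF_6h, and replicate 2 of Ctrl_0h stands above the other untreated libraries for Mmp25.

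Mmp12 encodes macrophage elastase (ENSMUSG00000049723, chromosome 9, 7344397 to 7360461). It had 1351, 1296 and 1287 CPM in IL_24h and 102.1, 163 and 113 CPM in IL_6h, against 65.7, 58.5 and 62.1 CPM in Ctrl_0h. Every library with the interleukins lay above the untreated ones, by 1.02 ± 0.26 at 6 h (adjusted p = 0.001805) and 4.40 ± 0.29 at 24 h (adjusted p = 4.78e-10), across sets. The levels in IL_TNF_24h were 909, 2334 and 2414 CPM, so that 1 library lay below and 2 above all of IL_24h. Between IL_TNF_6h (138, 145 and 199 CPM) and IL_6h the libraries overlapped (0.35 ± 0.25, adjusted p = 0.4921). TNF alone left it at 79.5, 98.8 and 79.0 CPM in TNF_6h and 60.5, 63.6 and 68.4 CPM in TNF_24h, neither called against Ctrl_0h, although TNF_6h was called when these groups alone were fitted (adjusted p = 0.006893) or without a filter (adjusted p = 0.02917). It was higher in IL_TNF_24h than in TNF_24h by 4.88 ± 0.30 (adjusted p = 1.122e-10), a comparison that crosses sets.

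Mmp13 and Mmp8 are collagenases that cut fibrillar collagen, and both lie with Mmp12 in the metalloproteinase cluster of chromosome 9. Mmp13 (ENSMUSG00000050578, 7272514 to 7283333) carries the AP-1 and TATA matches printed above. It had 72.2, 70.4 and 99.6 CPM in IL_TNF_6h, against 30.6, 49.7 and 31.0 CPM in IL_6h. At 24 h the order of the groups was turned round, with 12.5, 10.2 and 12.9 CPM in IL_TNF_24h, against 22.0, 22.7 and 20.7 CPM in IL_24h. The effect of TNF on Mmp13 in the presence of the interleukins was lower at 24 h than at 6 h by -2.00 ± 0.27 (adjusted p = 0.0001393), in a test that crosses sets. In this test 3 members were called, 2 higher and 1 lower, with 3.68% of all genes called, 1.89% higher and 1.78% lower. Mmp9 (1.21 ± 0.52), Mmp12 (0.175 ± 0.36), Mmp19 (0.92 ± 0.36), Mmp25 (1.38 ± 1.28), Timp1 (-1.52 ± 0.59) and Timp2 (-0.315 ± 0.17) were not called in it, although Mmp9 was with both libraries that stand apart left out (1.522, adjusted p = 0.0007682).

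TNF alone gave Mmp13 4.32, 5.16 and 3.92 CPM in TNF_6h and 11.5, 14.0 and 14.7 CPM in TNF_24h, against 5.99, 4.16 and 4.34 CPM in Ctrl_0h. It thus rose late without the interleukins (TNF_24h against TNF_6h, 1.58 ± 0.20, adjusted p = 1.242e-05), a comparison in which 5 members were called, 2 higher and 3 lower, with 23.6% of all genes called, 12.7% higher and 10.9% lower. Timp2 was also lower there (-0.71 ± 0.12), and Mmp9 (0.046 ± 0.33), Mmp12 (-0.42 ± 0.25) and Mmp25 (1.98 ± 0.89) were not called. The TNF_24h and TNF_6h libraries did not overlap for Mmp12 and Mmp25. When these groups alone were fitted, both were called (adjusted p = 0.01444 and 0.00367), and Mmp25 also without a filter (adjusted p = 1.471e-05). The effect of TNF on Mmp13 with the interleukins minus that without was 1.235 ± 0.28 at 6 h (adjusted p = 0.00415) and -2.34 ± 0.28 at 24 h (adjusted p = 5.748e-06). Of the 10 members 6 were called in this difference at 6 h, 3 higher and 3 lower, with 18.4% of all genes called, 9.27% higher and 9.13% lower, while Mmp12 (-0.12 ± 0.36) and Timp2 (-0.46 ± 0.17) were not called. At 24 h 3 were called, 2 higher and 1 lower, with 24.1% of all genes called, 11.6% higher and 12.5% lower, while Mmp12 (0.48 ± 0.36), Mmp19 (0.26 ± 0.38) and Timp1 (-1.22 ± 0.59) were not called. Replicate 2 of IL_6h and replicate 3 of IL_TNF_6h, which had the highest Mmp13 of their groups, also had the highest summed stromal markers there. Without these 2 libraries Mmp13 rose in IL_TNF_6h against IL_6h by 1.22 (adjusted p = 7.499e-05).

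Mmp8, the neutrophil collagenase (ENSMUSG00000005800, chromosome 9, 7558429 to 7568486), had 16.75, 13.78 and 14.1 CPM in IL_TNF_24h, against 6.485, 5.72 and 6.77 CPM in IL_24h. At 6 h it had 3.90, 2.65 and 2.565 CPM in IL_TNF_6h, against 3.25, 4.43 and 3.45 CPM in IL_6h. The groups overlapped at 6 h and were apart at 24 h. The effect of TNF was higher at 24 h by 1.52 ± 0.28 (adjusted p = 0.00303), in a test that crosses sets. TNF alone gave 1.98, 3.16 and 2.82 CPM in TNF_6h and 1.55, 1.79 and 1.755 CPM in TNF_24h, against 1.82, 1.83 and 1.37 CPM in Ctrl_0h. The call at 6 h of TNF alone was lost without any 1 of replicate 3 of Ctrl_0h and replicates 2 and 3 of TNF_6h (adjusted p = 0.05446 to 0.1). The lower level in TNF_24h than in TNF_6h was called (-0.65 ± 0.21, adjusted p = 0.0339), and not without any 1 of replicates 2 and 3 of TNF_6h and the 3 of TNF_24h (adjusted p = 0.06694 to 0.1606). Both calls were also lost when the 2 groups alone were fitted (adjusted p = 0.1276 and 0.07778) or without a filter (adjusted p = 0.05453 and 0.1578). A list of 14 neutrophil markers was checked beside these values. Its summed level was 3.74 to 7.09 CPM in IL_TNF_24h, against 1.24 to 1.90 CPM in IL_24h, with 6 of the 14 at 0 in IL_TNF_24h (Ly6g, Elane, Mpo, Prtn3, Ctsg and Retnlg). Cxcr2, a chemokine receptor, made up most of that sum, with 2.17, 5.09 and 5.30 CPM in IL_TNF_24h.

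Mmp19 encodes a secreted proteinase that cuts basement membrane proteins (ENSMUSG00000025355, chromosome 10, 128790910 to 128800827). It had 56.7, 46.1 and 49.65 CPM in IL_TNF_24h, against 39.7, 38.9 and 39.35 CPM in IL_24h, without overlap but not called (0.37 ± 0.25, adjusted p = 0.4868). At 6 h it had 8.255, 8.39 and 9.85 CPM in IL_TNF_6h, against 11.8, 13.6 and 13.3 CPM in IL_6h, again apart and not called (-0.55 ± 0.26, adjusted p = 0.2169). With TNF alone there were 8.075, 11.3 and 8.77 CPM in TNF_6h and 3.71, 3.99 and 7.45 CPM in TNF_24h, against 5.825, 2.23 and 5.91 CPM in Ctrl_0h. Its rise after TNF alone was called at 6 h, where no library overlapped, and the level was lower at 24 h than at 6 h (-0.90 ± 0.27, adjusted p = 0.02111). Both comparisons of IL_TNF with IL were called when the 2 groups alone were fitted (adjusted p = 0.0227 at 24 h and 0.04438 at 6 h). The call between the times of TNF was lost without replicate 2 of TNF_6h or replicate 1 or 2 of TNF_24h (adjusted p = 0.1068 to 0.1133). The effect of TNF at 6 h was lower with the interleukins than without by -1.555 ± 0.38 (adjusted p = 0.006938).

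Mmp25, the lipid-anchored leukolysin (ENSMUSG00000023903, chromosome 17, 23628315 to 23645269), is the one with 2 NF-kB matches in its window. It had 13.3, 12.5 and 8.85 CPM in IL_TNF_6h, against 0.729, 0.869 and 0.948 CPM in IL_6h. At 24 h there were 3.997, 3.48 and 2.975 CPM in IL_TNF_24h, against 0.117, 0.0469 and 0.116 CPM in IL_24h. Both comparisons lay within a set and showed no overlap (adjusted p = 0.003963 and 0.001628). TNF alone gave 0.603, 0.328 and 0.344 CPM in TNF_6h and 1.61, 1.30 and 2.12 CPM in TNF_24h. The untreated libraries had 2, 97 and 0 counts (1.11 ± 1.88 CPM, SD, n = 3), so replicate 2 of Ctrl_0h holds nearly all of them. Against the 2 counts of replicates 1 and 3 of Ctrl_0h, the rate of Mmp25 was 14.4 times as high in TNF_6h (95% interval of the counting error 3.72 to 123) and 57.2 times in TNF_24h (15.6 to 476). The apparent differences in its TNF effect with and without the interleukins, 5.12 ± 1.23 at 6 h and 4.52 ± 1.31 at 24 h, were 0.053 and -0.551 without that library, neither called.

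**Figure D3:**
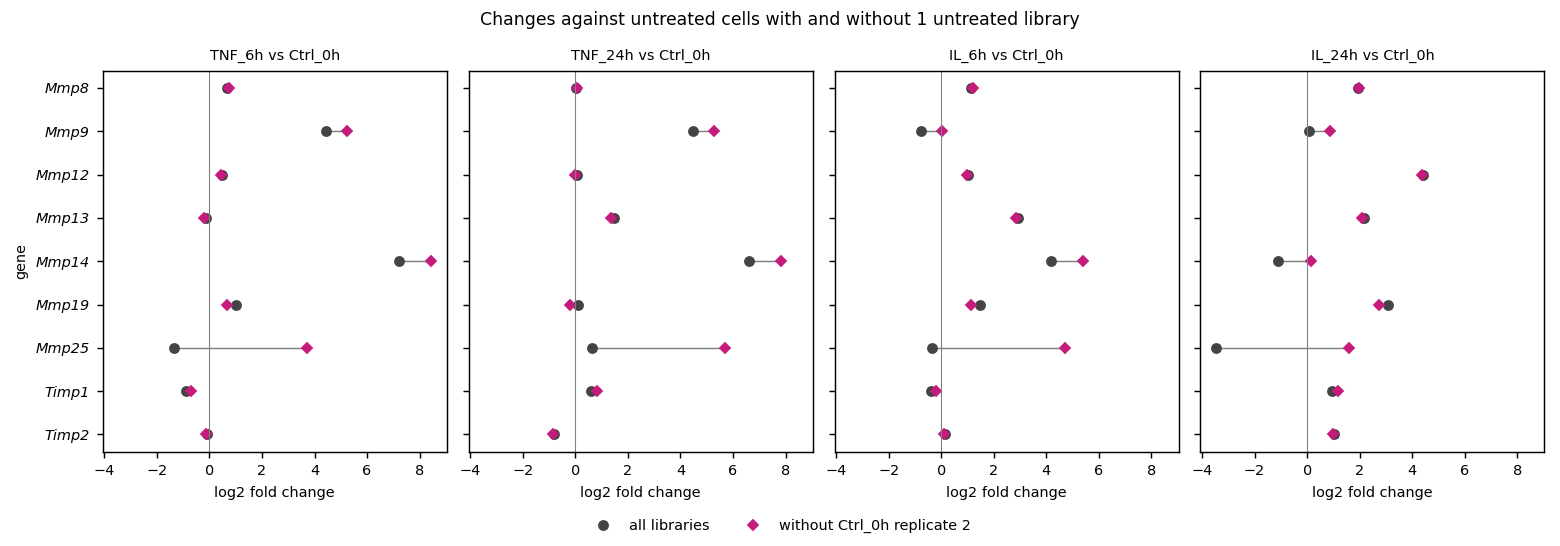
Log2 fold change against Ctrl_0h (x axis) of 9 members (y axis) with all 3 untreated libraries and without replicate 2, in 4 panels for TNF and for IL-4 with IL-13 at 6 h and 24 h. Mmp25 moves from below 0 to 3.71 in TNF_6h and to 1.603 in IL_24h, Mmp14 moves up by about 1.23 in every panel, and Timp3 is left out because it had too few counts.

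Timp2, the inhibitor that also bridges Mmp14 and the proenzyme of Mmp2 (ENSMUSG00000017466, chromosome 11, 118301061 to 118355411), was the most abundant inhibitor in every group. It had 218, 198 and 223.5 CPM in IL_TNF_6h, against 327, 329.9 and 289 CPM in IL_6h, and 281, 361 and 313 CPM in IL_TNF_24h, against 626, 599 and 532 CPM in IL_24h. TNF thus went with lower Timp2 at both times, without overlap (adjusted p = 0.002234 and 3.423e-05). With TNF alone it had 304, 259 and 241 CPM in TNF_6h and 181, 156 and 155 CPM in TNF_24h, against 311, 275 and 277 CPM in Ctrl_0h. The fall without the interleukins was seen at 24 h (adjusted p = 1.77e-05), while TNF_6h overlapped the untreated libraries (-0.10 ± 0.12, adjusted p = 0.527). At 24 h TNF lowered it by -0.88 ± 0.12 with and -0.81 ± 0.12 without the interleukins, a difference of -0.072 ± 0.17 that was not called (adjusted p = 0.7953).

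Timp1, the inducible inhibitor of many tissues (ENSMUSG00000001131, chromosome X, 20870166 to 20874737), had at most 2.04 CPM in any library. It had 1.51, 0.949 and 1.49 CPM in IL_TNF_6h, against 0.552, 0.891 and 0.661 CPM in IL_6h, apart but not called (0.90 ± 0.42, adjusted p = 0.2066). With TNF alone there were 0.704, 0.358 and 0.413 CPM in TNF_6h and 1.79, 1.58 and 0.828 CPM in TNF_24h, against 1.12, 1.18 and 0.457 CPM in Ctrl_0h. Without replicate 3 of Ctrl_0h it was called lower in TNF_6h (-1.219, adjusted p = 0.03744). Its level rose between 6 h and 24 h of TNF (1.51 ± 0.44, adjusted p = 0.01716), a call lost without replicate 2 or 3 of TNF_6h or replicate 1 or 2 of TNF_24h (adjusted p = 0.05853 to 0.08397). The call was also lost without a filter (adjusted p = 0.09247). Timp1 lies inside Syn1, a synapsin gene with 4.37 to 20.9 CPM by group, and the strand setting of the counting is not given, so reads of both cannot be told apart. Timp3 (ENSMUSG00000020044, chromosome 10, 86300412 to 86349505), which binds to the matrix, had at most 24 counts in any library and was called in none of the 12 edgeR tests, whose smallest unadjusted p for it was 0.09904. Its counts were 2, 0 and 16 in IL_TNF_6h, 0, 24 and 3 in IL_6h and 0, 16 and 0 in Ctrl_0h, and 0 to 3 in the libraries of the 4 other groups. The 3 libraries with 16 or more counts also had the highest summed level of 10 stromal markers in the series (10.65, 13.67 and 16.7 CPM), and the part of these markers in the Timp3 counts was not tested.

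To compare levels between genes, CPM were divided by the exon length of each gene in kb. The summed level of the 7 proteinases was 349.5, 338.6 and 261 CPM per kb in IL_TNF_6h and 274.9, 230.4 and 240.6 in TNF_6h, against 61.4, 67.4 and 61.65 in IL_6h and 14.9, 16.5 and 13.3 in Ctrl_0h. Mmp14 made up 70.6% to 82.65% of that sum in IL_TNF_6h and 85.4% to 88.6% in TNF_6h, but 29.5% to 49.5% in IL_6h. At 24 h the sum was 218.9, 407.6 and 418.4 CPM per kb in IL_TNF_24h, 210.9, 202.6 and 201.2 in IL_24h and 179.4, 177.4 and 161.5 in TNF_24h. Mmp12 made up 57.4% to 79.7% in IL_TNF_24h and 88.4% to 88.5% in IL_24h, while Mmp14 made up 79.3% to 84.3% in TNF_24h. Mmp14 thus made up most of the sum with TNF alone, and Mmp12 most of it after 24 h with the interleukins. In Ctrl_0h, with its far lower sum, Mmp12 also made up 60.85%, 49.11% and 64.34%. These sums and shares depend on the length taken for Mmp12, whose exons cover 7237 bases but whose longest coding transcript has 3607. With transcript lengths Mmp12 made up 72.7% to 88.3% in IL_TNF_24h and 65.6% to 78.2% in Ctrl_0h. The sum was then 346.7, 735.7 and 757.6 CPM per kb in IL_TNF_24h and 398.9, 382.8 and 380.3 in IL_24h. In IL_TNF_6h it was 369.5, 359.3 and 289.3 and in TNF_6h 287.7, 245.7 and 253.1, so that IL_24h lay above both and not below them. In IL_6h Mmp14 then made up 22.0% to 40.2% and Mmp12 37.4% to 50.2%.

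**Figure D4:**
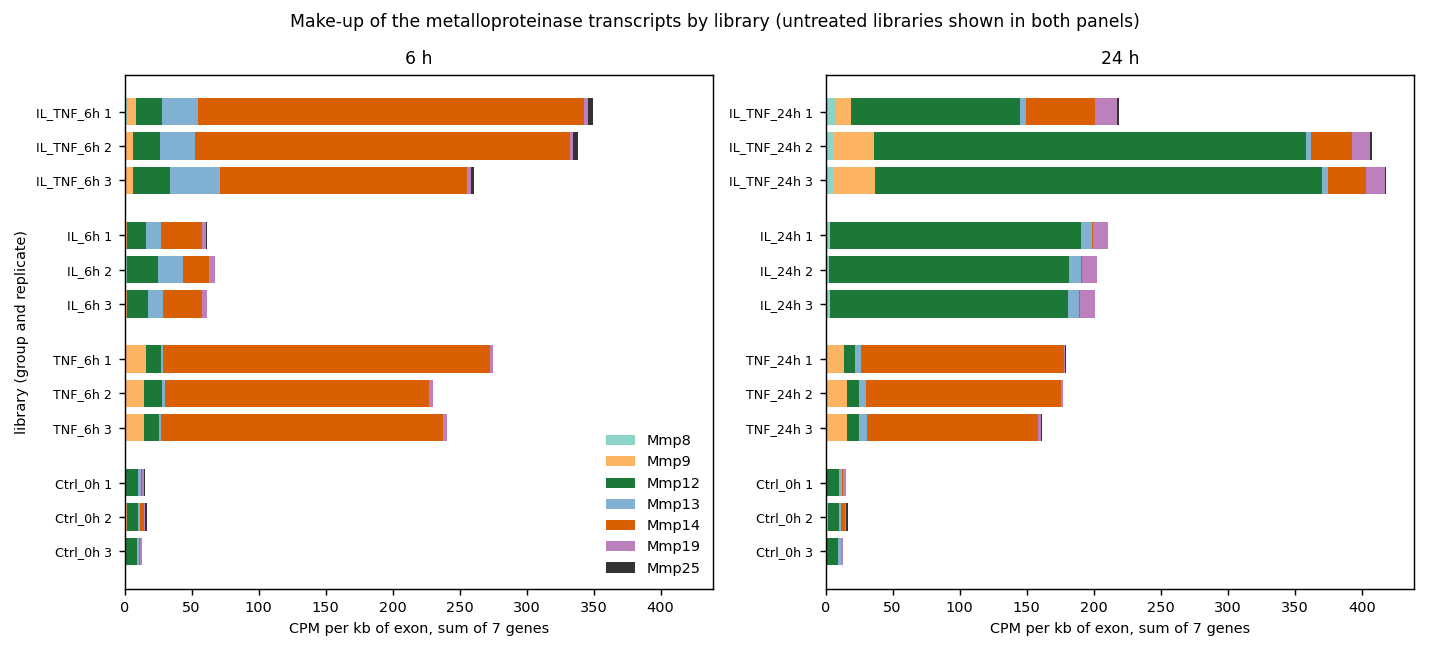
Summed level of the 7 proteinases in CPM per kb of exon (x axis) in each library (bars, y axis), divided by gene, in 6 h and 24 h panels, with the untreated libraries in both. Mmp14 fills most of the bars of IL_TNF_6h, TNF_6h and TNF_24h, and Mmp12 most of those of IL_TNF_24h and IL_24h. Mmp12 is also the largest part of the short untreated bars.

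Read as an order of the group means, no 2 members had the same one, but some orders differed only between groups whose libraries overlapped. Those of Mmp8 and Mmp12 differed only in IL_6h and IL_TNF_6h, and those of Mmp8 and Mmp19 only in IL_TNF_6h and TNF_6h. Mmp14 was highest in IL_TNF_6h, then TNF_6h, TNF_24h, IL_TNF_24h, IL_6h, Ctrl_0h and IL_24h, and the libraries of 3 neighbouring pairs overlapped, IL_TNF_6h with TNF_6h, IL_TNF_24h with IL_6h, and Ctrl_0h with IL_24h. Mmp12 ran from IL_TNF_24h through IL_24h, IL_TNF_6h, IL_6h, TNF_6h and TNF_24h to Ctrl_0h, with overlap between IL_TNF_24h and IL_24h, between IL_TNF_6h and IL_6h, and between TNF_24h and Ctrl_0h. For Mmp8 and Mmp19 the means of IL_TNF_24h and IL_24h stood first and second, apart from each other, and those of TNF_24h and Ctrl_0h came last and overlapped. Timp2 was highest in IL_24h and lowest in TNF_24h, both apart from their neighbours, and for Timp1 every group overlapped the next.

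The ratio of this sum to Timp2, on the same scale, was 6.25, 6.66 and 4.55 in IL_TNF_6h and 3.52, 3.46 and 3.89 in TNF_6h, against 0.731, 0.796 and 0.832 in IL_6h and 0.187, 0.233 and 0.1875 in Ctrl_0h. At 24 h it was 3.04, 4.398 and 5.205 in IL_TNF_24h and 3.86, 4.425 and 4.05 in TNF_24h, against 1.31, 1.32 and 1.47 in IL_24h. All 12 libraries with TNF thus lay above all 9 without it in this ratio of RNA levels, which says nothing of protein or activity.

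Apart from Mmp27, the chromosome 9 cluster that holds Mmp13, Mmp12 and Mmp8 was otherwise little expressed. Over all 21 libraries the neighbours Mmp1b, Mmp3, Mmp1a, Mmp20 and Mmp7 had 2 to 9 counts and Mmp10 had 104. Mmp12 had 477785, Mmp13 had 20922 and Mmp8 had 4074. Mmp27 had 2434 counts, and was lower in IL_TNF_24h than in IL_24h (2.20 ± 0.36 against 3.62 ± 0.47 CPM, log2 fold change -0.72 ± 0.21). Mmp2, the gelatinase whose proenzyme Mmp14 cuts, was 1.51 ± 0.23 CPM in IL_TNF_24h and 0.483 ± 0.19 CPM in IL_24h (SD, n = 3 each), and rose there by 1.63 ± 0.38 (adjusted p = 0.007004) and in TNF_6h against Ctrl_0h by 1.52 ± 0.38. Of 17 further genes, other metalloproteinases and Timp4, 6 were tested, and 2 were called in IL_TNF_24h against IL_24h and 0 in IL_TNF_6h against IL_6h. By edgeR the adjusted p of Mmp27 in the 6 h comparison was 0.05144 (-0.64 ± 0.21), and it was the 1 gene of the 6 with an unadjusted p below 0.05.

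Of 9 anchors, receptors and inducers of these enzymes, 2 rose and 1 fell in IL_TNF_6h against IL_6h and 1 rose and 1 fell in IL_TNF_24h against IL_24h. Sdc1, a heparan sulfate proteoglycan that is shed by metalloproteinases, rose at both times, with 107 ± 11.3 against 37.35 ± 4.25 CPM at 6 h and 178 ± 44.5 against 106 ± 7.24 CPM at 24 h. Lrp1, the receptor that clears metalloproteinases from the surface, fell at both times, by -0.50 ± 0.15 and -0.98 ± 0.15. Furin, which activates the proenzyme of Mmp14, was 155 ± 17.3 CPM in IL_TNF_6h against 230.5 ± 26.55 CPM in IL_6h and 204 ± 27.6 CPM in IL_TNF_24h against 315 ± 8.97 CPM in IL_24h, and fell in both, but rose in TNF_6h against Ctrl_0h (0.51 ± 0.175). Of 5 tested genes of plasminogen activation 1 rose and 0 fell in IL_TNF_6h against IL_6h. It was the inhibitor Serpinb2 (2.465 ± 0.805), at a low level of 0.425 ± 0.317 CPM against 0.0764 ± 0.0662 CPM. In IL_TNF_24h against IL_24h 0 rose and 2 fell, the protease Plau (-1.38 ± 0.19) and its receptor Plaur (-0.825 ± 0.15). With TNF alone Plaur was lower than in Ctrl_0h at 6 h (-0.58 ± 0.155) and higher at 24 h (0.52 ± 0.15).

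Among 10 tested ADAM and ADAMTS proteases, which belong to the same clan and are in part inhibited by Timp3, 2 rose and 2 fell in IL_TNF_24h against IL_24h and 1 rose and 2 fell in IL_TNF_6h against IL_6h. Adam17, which sheds TNF from the cell surface, rose in all 4 comparisons that add TNF, with 555 ± 60.4 CPM in IL_TNF_6h against 289.5 ± 24.6 CPM in IL_6h and 454 ± 23.9 CPM in TNF_6h against 143 ± 24.9 CPM in Ctrl_0h. Adam19 rose to 69.7 ± 4.65 CPM in IL_TNF_24h, against 24.3 ± 0.78 CPM in IL_24h. Adam8 fell in all 4 of these comparisons. Its changes were -0.43 ± 0.12 in TNF_6h and -0.83 ± 0.12 in TNF_24h against Ctrl_0h. In IL_TNF against IL they were -0.71 ± 0.12 at 6 h and -0.63 ± 0.12 at 24 h. The other fallers were Adam33 in IL_TNF_6h against IL_6h (-0.58 ± 0.19) and Adam15 in IL_TNF_24h against IL_24h (-1.04 ± 0.17). Of 10 tested substrates 1 rose and 0 fell in IL_TNF_6h against IL_6h, the collagen Col4a2 (1.56 ± 0.215). At 24 h 1 rose and 2 fell in IL_TNF_24h against IL_24h, with fibronectin (Fn1) at 56.4 ± 31.6 against 247 ± 20.5 CPM and the proteoglycan Vcan at 5.93 ± 0.52 against 2.40 ± 0.24 CPM. The lists were read beside the 11.1% and 14.1% of all genes called in these comparisons.

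The genes whose level over the 7 group means was most like that of 3 members were taken among 9054 or 9055 genes by Pearson correlation of log2 CPM. Likest to Mmp14 were Aoah (0.986), Ddx52 (0.986), Cp (0.981), Spint2 (0.975) and Gbp4 (0.968). Likest to Mmp12 were Ocstamp (0.995), Apba1 (0.992), Mtfr1 (0.990), Capn1 (0.990) and Stat5b (0.986), and to Timp1 Btbd10 (0.975), Fkbp9 (0.961), Tshz1 (0.936), Mapre1 (0.921) and Lin54 (0.914). The correlation takes no account of the size of change. Group means ran from 1.79 to 651 CPM for Mmp14 and 9.88 to 210 CPM for Aoah, but from 22.0 to 28.2 CPM for Ddx52. Those of Mtfr1 ran from 9.51 to 12.5 CPM and those of Btbd10 from 14.4 to 19.1 CPM. The 7 points share libraries and their sets, and the correlations are a description with no test.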

How the data were processed

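RNA was sequenced from 21 libraries of bone-marrow-derived macrophages. The authors deposited 1 table of raw gene counts, and no scaling was applied to it before use here. The submitters' processing notes name GRCm38, TopHat2 2.0.12, Subread 1.6.3 with featureCounts, and edgeR 3.28.1. How the authors set the annotation, the strand and the counting of mates was not given in the sources used here. Values of 2 (30373 of them) outnumbered values of 1 (17808), so counting intervals, which cover counting error only, are likely too narrow. Overlapping genes (Mmp19 with Tmem198b, Mmp25 with Bicdl2, Timp1 with Syn1, Timp3 with Syn3) may share reads.

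From these counts everything else was computed with R 4.3.3, edgeR 4.0.16 and Python 3.11.15. Genes passing filterByExpr by group (15581) were scaled by TMM and fitted with 1 term per group over all libraries. For 12 contrasts the quasi-likelihood F test was run, with Benjamini-Hochberg adjustment over all genes tested. The standard error is the absolute log2 fold change divided by the root of F. On simulated counts of 15269 genes 68 of the 100 genes changed 2-fold were called and 93 of the 100 changed 4-fold, and 7 of 168 calls were false. This covered only IL_TNF_6h against IL_6h, with changed genes above a minimum expected count in IL_6h and no outlying library. The rates thus do not extend to members with low counts or to comparisons with Ctrl_0h. Symbols and places come from gene tables of GRCm38.p6, and exon lengths from an Ensembl annotation of an older build, used for length only. Members and lists were chosen with earlier results of these data known. The rule for named genes took all 10 members in each contrast and up to 3 called genes a direction from each further list. Genes of these lists had to reach 1 CPM in the higher group. Serpinb2, below that level, was named as the only call of its list in IL_TNF_6h against IL_6h. No fold change of Timp3 is printed because of its low counts, and list genes are given for the contrasts of IL_TNF with IL and a few others, not for all 12. Alternatives were DESeq2 1.42.0 (size factors and Wald test), other filters, a block by replicate number, a fit to only the groups compared, each library left out, and 2 pairs of libraries left out, chosen after the data were seen. Same-numbered libraries had correlations of deviations over 0.1 in 2 of 27 pairs, so the numbers do not pair them.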

Additional observations from a re-analysis of the deposited data

Results flagged for a closer look

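The effect of TNF differed between cells with and without IL-4 and IL-13 by a test of the difference itself (edgeR, adjusted p below 0.05). At 6 h the effect with the interleukins minus that without was -0.957 for Mmp8, 1.235 for Mmp13, -3.951 for Mmp14, -1.555 for Mmp19, 5.12 for Mmp25 and 1.809 for Timp1 on the log2 scale. At 24 h it was 1.214 for Mmp8, -2.339 for Mmp13 and 4.522 for Mmp25. With the interleukins, the effect of TNF at 24 h minus that at 6 h was 1.524 for Mmp8, -1.996 for Mmp13 and 2.484 for Mmp14. The 6 h call of Mmp8 was lost without any 1 of replicate 3 of Ctrl_0h, replicates 2 and 3 of TNF_6h and replicate 2 of IL_TNF_6h (adjusted p = 0.0617 to 0.08756). That of Timp1 was lost without any 1 of 9 libraries, all those of the 4 groups but replicate 3 of Ctrl_0h, replicate 1 of TNF_6h and replicate 2 of IL_TNF_6h (adjusted p = 0.05126 to 0.1231). These 6 h calls of Mmp8 and Timp1 were also lost when the 4 groups alone were fitted (adjusted p = 0.1517 and 0.07983) or without a filter (adjusted p = 0.08826 and 0.2286). The 24 h call of Mmp25 was also lost without replicate 2 of IL_24h (adjusted p = 0.05556) or with its 4 groups alone (adjusted p = 0.0761). Timp2 was called at 6 h without replicate 3 of TNF_6h (-0.54) or of IL_TNF_6h (-0.574). The 6 h value of Mmp14 was -5.181 without replicate 2 of Ctrl_0h. Both values of Mmp25 rest on replicate 2 of Ctrl_0h, and were 0.053 and -0.551 without it. The effects compared each lie within a set of libraries, but each difference sets effects from different sets against each other. The set thus cannot be told apart from the interleukins, or from the time in the 24 h minus 6 h differences. The effect without the interleukins is measured against cells at 0 h.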

How the results depend on the processing

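Over 1726 values of members under the alternatives, those called kept direction and call in 779, lost the call in 61 and turned direction in 7, while those not called stayed so in 831, became called in 44 and turned direction with a call in 4. Leaving out each library in turn, Mmp25 ranged from -1.923 to 3.712 in TNF_6h, -0.929 to 4.703 in IL_6h and -4.032 to 1.603 in IL_24h against Ctrl_0h and from -0.551 to 5.087 in the 24 h difference of TNF effects, and Mmp14 in IL_24h from -1.498 to 0.134. The ends that changed direction were those without replicate 2 of Ctrl_0h. With replicate 1 of IL_TNF_24h left out as well these values were 3.79, 4.747, 1.645, -0.723 and 0.178, and the 6 h difference of Mmp25 was -0.016. The cause was not tested. The count of members called, leaving out each library in turn, ranged from 3 to 5 in TNF_6h and 4 to 5 in TNF_24h against Ctrl_0h, 2 to 5 in TNF_24h against TNF_6h, 5 to 5 and 6 to 7 in IL_TNF against IL at 6 h and 24 h, 5 to 6 and 6 to 7 in IL against Ctrl_0h, and 5 to 6 at both times in IL_TNF against TNF. In the differences of TNF effects it ranged from 4 to 6 at 6 h, 2 to 4 at 24 h and 2 to 3 between the times, and with no filter 5 were called in the last of these in place of 3. With the replicate number as a block the calls of Mmp14 in IL_24h against Ctrl_0h (-1.03, adjusted p = 0.0546) and of Timp1 in the 6 h difference (1.80, adjusted p = 0.0615) were lost, no other call changed, and in 10 of 27 comparisons of a library with another group it correlated best with its own number. The difference of Mmp14 between the times was lost without any 1 of replicates 1 and 3 of IL_6h, the 3 of IL_24h and replicate 3 of IL_TNF_6h (adjusted p = 0.050 to 0.081). Mmp9 was called lower in IL_6h than in Ctrl_0h without replicate 1 (-1.068) or 3 (-1.036) of Ctrl_0h, and the 24 h difference of Mmp12 was called without replicate 1 of IL_TNF_24h (0.742). With replicate 2 of Ctrl_0h and replicate 1 of IL_TNF_24h both left out, Mmp25 in IL_TNF_24h against TNF_24h (0.922) and the 6 h difference of Timp2 (-0.509) were called as well. Low counts limit Timp3, Timp1 and Mmp25.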
